A study of Rattus norvegicus with 6 samples.

Results

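The genes described here encode the proteins of the mitochondrial ribosome, measured by RNA sequencing in scraped corneal epithelium of diabetic and normal rats. Members were the loci typed as protein coding whose name starts with Mrpl (large subunit) or Mrps (small subunit) and a digit, with a mean of at least 0.5 FPKM (fragments per kilobase of locus, scaled to the reads of the library) over the 6 libraries, and 1 locus per symbol, the one of highest mean. This gave 71 genes, 45 of the large and 26 of the small subunit, out of 61453 loci in the series, of which 20864 were protein coding. Before the filter there were 73 such loci of 72 symbols, and the 2 loci that failed it both carried the name Mrps21l and had no counts.

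The diabetic group was 3 male Brown Norway rats given 1 intraperitoneal injection of streptozocin (STZ, a toxin of the insulin-producing beta cells) at 50 mg/kg, and the normal group was 3 male Brown Norway rats given citrate buffer. STZ rats counted as diabetic only with a blood glucose above the limit the study set, and the corneal epithelium was shaved from the trimmed cornea with a razor blade at 16 weeks. No genotype other than normal and no other agent is given, and no source used here states the age of the rats. Each library is labelled with its group and a number, and was taken as 1 rat, so n = 3 per group. The methods of the study count more corneas than libraries in each group. How corneas were assigned to libraries is not stated.

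Mitochondria have ribosomes of their own. They translate the few proteins encoded in mitochondrial DNA, all of them core subunits of the oxidative phosphorylation (OXPHOS) complexes, whereas every protein of the mitochondrial ribosome is encoded in the nucleus, made in the cytosol and imported. The small subunit binds the messenger RNA and decodes it, and the large subunit joins the amino acids and holds the exit tunnel. Some of these proteins descend from bacterial ribosomal proteins and others occur only in mitochondria. The corneal epithelium is a stratified, self-renewing surface layer.

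No member passed the test between diabetic and normal epithelium (limma, Benjamini-Hochberg adjusted p under 0.05 and a change above 1.2-fold), in a fit that called 11 of 42551 loci, 0.0259%. edgeR on the counts called 0 members where it called 6 loci (0.0141%), and DESeq2 called 0 members where it called 99 loci (0.233%). At an unadjusted p under 0.05 there were 2 members with limma, 1 with edgeR and 1 with DESeq2, against 4.8%, 4.14% and 4.99% of all loci. A p that misses the threshold with 3 rats a group does not show that the levels were equal. The member with the smallest limma p was Mrpl37, a large subunit protein with no bacterial counterpart, whose 3 diabetic libraries all lay above its 3 normal libraries.

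Total counts per library ran from 62288901 to 87040253, and the members together held 0.0704% to 0.0789% of them. In 69 of the 71 genes every library had at least 100 counts. Of the markers of the corneal epithelium, Krt12, the cornea-specific keratin, was at 3660 to 4220 FPKM in the normal and 3860 to 4450 FPKM in the diabetic group. Pax6 read 18.2, 23.2 and 18.5 FPKM in the normal and 17.4, 18.9 and 17.2 FPKM in the diabetic libraries. Upk1b was higher without overlap, at 248, 272 and 244 FPKM in the normal and 346, 303 and 339 FPKM in the diabetic libraries (limma adjusted p = 0.953). It was the only 1 of the 5 markers found that did not overlap. Other tissues were present too. The summed level of 6 lens genes ranged from 103 to 346 FPKM in the normal and from 3.16 to 1200 FPKM in the diabetic libraries, diabetic 2 being the high one and diabetic 3 the low one. The summed level of 5 keratocyte genes was 803 to 1030 FPKM in the normal and 709 to 796 FPKM in the diabetic libraries. These sums do not overlap, but normal 3 at 803 FPKM and diabetic 3 at 796 FPKM were nearly level. Of the 5 genes only Lum did not overlap between the groups, beside 9.66% of all loci tested. The summed level of 5 leukocyte genes was 14.4 to 17.7 FPKM in the normal and 14.7 to 28.8 FPKM in the diabetic libraries. It came mostly from Lyz2 and Cd14, with means of 12.7 and 5.81 FPKM. Cd14 was higher without overlap, at 3.32 ± 1.27 FPKM in the normal and 8.3 ± 3.38 FPKM in the diabetic libraries (SD, n = 3). Its highest normal library read 4.43 FPKM and its lowest diabetic library 5.29 FPKM. The log2 fold change of Cd14 was 1.12 (limma adjusted p = 0.953, DESeq2 adjusted p = 0.0768). For Lyz2 the groups overlapped, with a log2 fold change of 0.03. Ptprc was at most 0.453 FPKM and lowest in diabetic 2 and 3. Cd3e was at most 0.0561 FPKM and Cd79a had no counts. Skeletal muscle genes, from a tissue rich in mitochondria, summed to at most 0.388 FPKM in any library. The part of these tissues in the values of the members was not tested, and fewer cells of a type cannot be told apart from less RNA per cell.

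Levels ran over a wide range between genes. The median member had a mean of 4.45 FPKM, beside 4.63 FPKM over the 11570 protein-coding loci tested; 41 members were below 5 FPKM and 7 were at 10 FPKM or more. On the FPKM scale, which is per length, the 4 highest genes of the large subunit were Mrpl33, Mrpl41, Mrpl23 and Mrpl17, with means of 32.7, 30.4, 21.6 and 16.4 FPKM. In the small subunit they were Mrps21, Mrps18a, Mrps23 and Mrps26, with means of 24.3, 10.7, 8.91 and 6.75 FPKM.

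For Mrpl33, the counterpart of a small bacterial large subunit protein, the normal libraries read 33.1, 35.6 and 29.8 FPKM and the diabetic libraries 29.9, 35.6 and 31.9 FPKM. Those of Mrpl41, a protein found only in mitochondria, read 28.5, 29.9 and 34.8 FPKM in the normal and 32.3, 27.0 and 30.1 FPKM in diabetic rats. In both genes the ranges of the groups overlapped, and neither can be placed above the other beyond that spread. Mrps21, the small subunit counterpart of bacterial S21, read 24.5, 25.5 and 24.2 FPKM in the normal and 27.5, 24.6 and 19.6 FPKM in the diabetic libraries. Here too the groups overlapped, and the diabetic libraries were the wider.

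The lowest genes were Mrpl39 at a mean of 1.58 FPKM and Mrpl50 at 1.69 FPKM in the large subunit, and Mrps36 at 0.995 FPKM and Mrps15 at 1.21 FPKM in the small subunit. Mrps36 lay nearest to the limit of 0.5 FPKM, and is now known as a part of the oxoglutarate dehydrogenase complex, not of the ribosome. In 6 members, among them Mrpl52, Mrpl36 and Mrps34, the length implied by counts and FPKM was over 90% of the gene's span or exceeded it by that measure, which bears on their FPKM level; what such a length includes was not tested. The implied length of a locus was the same in every library, so as a divisor it changes the order of genes and cancels in a fold change. Whether the reads counted over such a length differ between the groups was not tested.

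**Figure D1:**
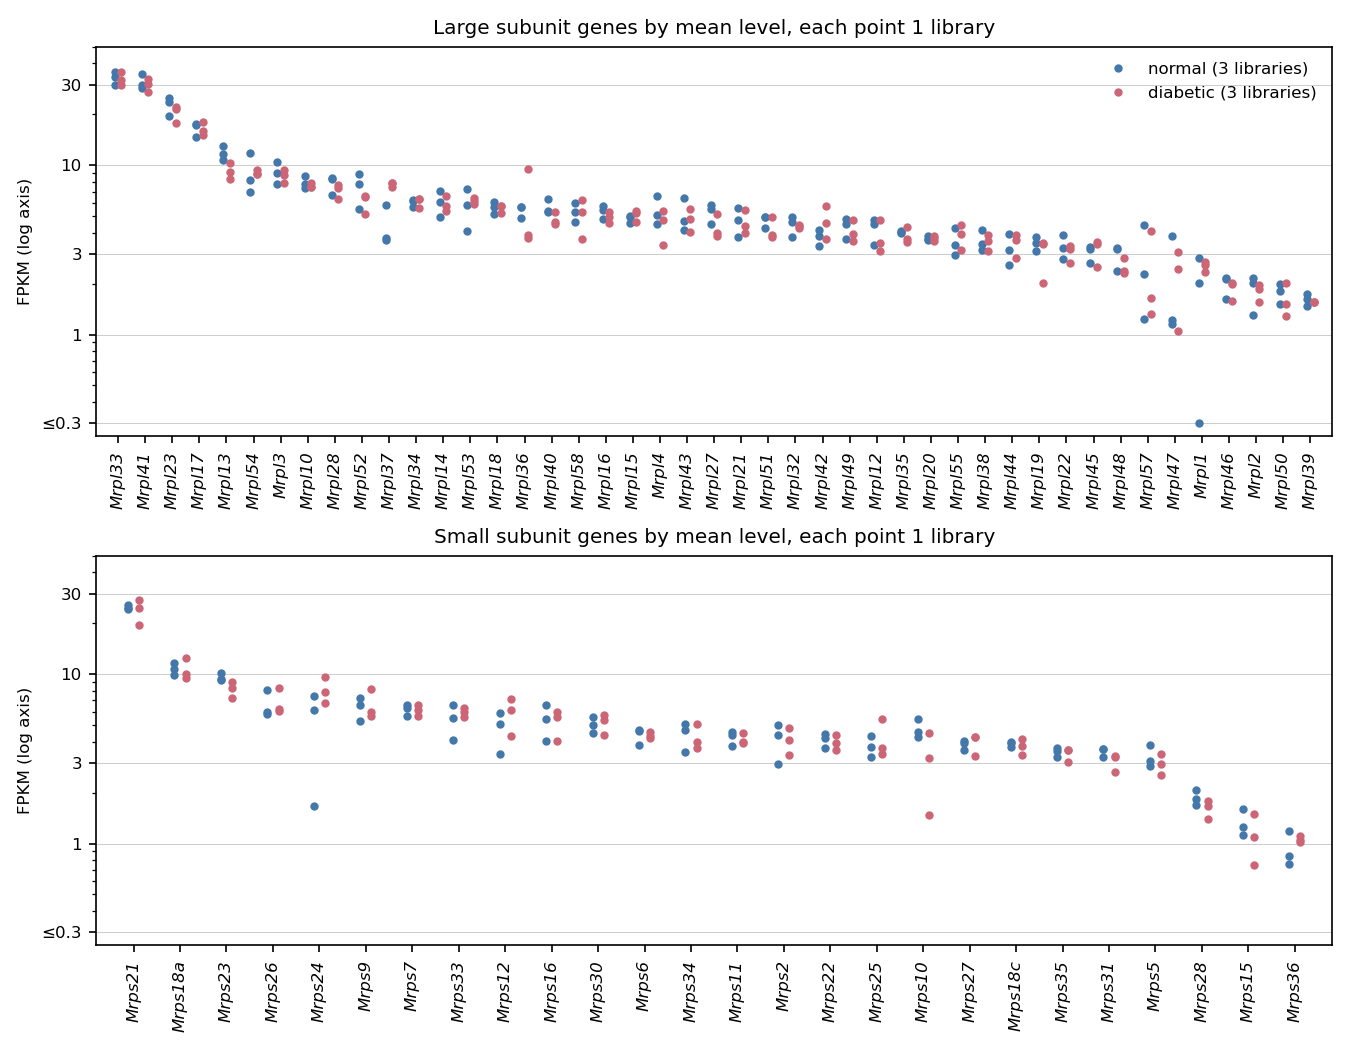
FPKM on a log axis for each large (top) and small (bottom) subunit gene in order of mean level; each point is 1 library, blue normal and red diabetic, and a value under 0.3 is drawn at the lowest tick. The red and blue points intermix for most genes; Mrpl37 has its 3 red points above its 3 blue ones, and Mrpl1 has 1 blue point at the floor.

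Mrpl37 (MSTRG.35430; rn6 chr5:126648694-126666833, minus strand, 5 transcripts at the locus) was followed alone, and was picked with its values known. The normal libraries read 5.86, 3.70 and 3.64 FPKM and the diabetic libraries 7.49, 7.82 and 7.81 FPKM. The counts behind these were 2364, 1446 and 1522 in normal and 3316, 2484 and 2568 in diabetic libraries. All 3 diabetic values were above all 3 normal values, with a gap of 1.63 FPKM between the highest normal and the lowest diabetic library, and the diabetic libraries were close together while normal 1 stood above the other two.

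In group terms Mrpl37 had 4.40 ± 1.27 FPKM in the normal and 7.71 ± 0.185 FPKM in diabetic epithelium (SD, n = 3), a ratio of means of 1.75. The limma log2 fold change on the log2(FPKM + 1) scale was 0.73 ± 0.17 (SE; 95% interval 0.34 to 1.13), with an unadjusted p of 0.00297 and an adjusted p of 0.953, rank 106 of 42551 loci. edgeR gave 0.83 with an adjusted p of 0.991 and DESeq2 an adjusted p of 0.091, so the difference passed the threshold in none of the 3. Of the 11570 protein-coding loci tested, 88 had a log2 fold change at least as high.

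Leaving out normal 1, the library that stood apart, raised the Mrpl37 log2 fold change to 0.92 with a limma adjusted p of 0.286, and over the 6 single-library omissions it ranged from 0.63 to 0.92. The neighbouring gene Ssbp3 ends 32 bases from the Mrpl37 locus and had 41.4 ± 4.60 FPKM in the normal and 43.9 ± 4.23 FPKM in the diabetic libraries (SD, n = 3), so the groups of the far more abundant neighbour overlapped. Another neighbour, Cyb5rl, read 0.704, 1.69 and 0.496 FPKM in the normal and 1.43, 1.45 and 1.42 FPKM in the diabetic libraries. Its log2 fold change was 0.37 (limma adjusted p = 0.953), and its groups overlapped through normal 2. The members whose centred log2 values lay nearest to those of Mrpl37 over the 6 libraries were Mrps33, Mrpl53 and Mrpl55, at root mean square distances of 0.31, 0.32 and 0.35. These lay only a little nearer than Mrpl20, which hardly varied (SD of log2 values 0.05) and lay at a distance of 0.41. In Mrps33, Mrpl53 and Mrpl55 the groups overlapped. Mrps33, for example, read 6.54, 5.50 and 4.11 FPKM in the normal and 6.01, 5.58 and 6.34 FPKM in the diabetic libraries.

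The groups did not overlap in 4 of the 71 members, 1 higher and 3 lower in diabetic rats, which is 5.63%; over all loci tested this held for 9.66%, 3.94% higher and 5.72% lower. Beside Mrpl37 these were Mrpl13, Mrpl40 and Mrps23. Mrpl13, counterpart of bacterial L13, read 11.7, 10.7 and 13 FPKM in the normal and 10.3, 9.12 and 8.26 FPKM in the diabetic libraries. The highest diabetic library and the lowest normal library lay side by side. Its log2 fold change was -0.31 ± 0.12 (SE; limma adjusted p = 0.953), and its locus overlaps the neighbour Mtbp, which starts on the other strand.

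Mrps23, a small subunit protein found only in mitochondria, read 9.43, 9.30 and 10.2 FPKM in the normal and 8.97, 8.30 and 7.27 FPKM in the diabetic libraries. Its log2 fold change was -0.20 ± 0.11 (SE; limma adjusted p = 0.953). Mrpl40, also specific to mitochondria, read 5.31, 6.30 and 5.40 FPKM in the normal and 5.27, 4.63 and 4.53 FPKM in the diabetic libraries. The nearest libraries of the groups, normal 1 and diabetic 1, were almost level, and the log2 fold change was -0.18 ± 0.12 (SE; limma adjusted p = 0.953). As a share of all loci, non-overlap was thus no more frequent among the members than elsewhere.

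**Figure D2:**
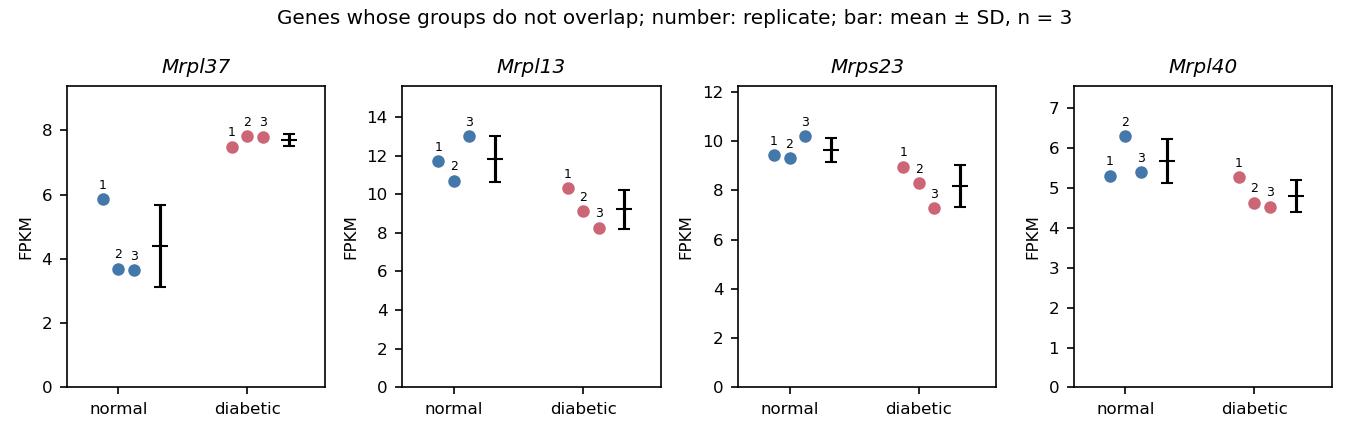
FPKM of the 4 members whose groups did not overlap; points are single libraries numbered by replicate, and the bars give the mean ± SD of 3 libraries. Mrpl37 has diabetic values of 7.49 to 7.82 above normal values of 3.64 to 5.86, whereas in Mrpl13, Mrps23 and Mrpl40 the lower diabetic values come close to the normal ones.

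The large and small subunits were compared separately. In the large subunit 14 log2 fold changes were positive and 31 negative, with a median of -0.034; in the small subunit 13 were positive and 13 negative, with a median of -0.002. Over all loci tested 20850 were positive and 21701 negative, with a median of -0.005. Without normal 1 the large subunit median was 0.005, and without diabetic 3 it was 0.013, so its sign rests on those libraries. edgeR counted 18 positive and 27 negative large subunit genes, with a median of -0.035.

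Summed over the large subunit, the level was 297 ± 10.4 FPKM in the normal and 287 ± 14.1 FPKM in the diabetic libraries, and over the small subunit 142 ± 4.35 FPKM and 142 ± 13.4 FPKM (SD, n = 3). The ratio of the large to the small subunit sum was 2.05, 2.19 and 2.05 in normal and 1.91, 2.09 and 2.10 in diabetic libraries. These ranges overlap. Genes with a bacterial counterpart and genes found only in mitochondria had medians of -0.016 (26 genes) and -0.042 (19 genes) in the large subunit and of -0.011 (14 genes) and -0.014 (9 genes) in the small subunit. Structures place Mrps30 and Mrps18a in the large subunit in spite of their names; moved there, they left its median at -0.025 and that of the small subunit at -0.011. Mrps18a read 9.89, 10.8 and 11.6 FPKM in the normal and 12.5, 9.54 and 9.97 FPKM in the diabetic libraries, and Mrps30 read 4.99, 5.58 and 4.47 FPKM and 5.75, 5.37 and 4.38 FPKM. Mrps28, a small subunit protein, read 2.06, 1.68 and 1.83 FPKM and 1.66, 1.78 and 1.40 FPKM.

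The precision of these values limits what could be seen. Fold changes on the log2(FPKM + 1) scale understate those of genes with low FPKM, so the size of a 1.5-fold or 2-fold change from the normal mean of each gene was computed on that scale. The 95% interval lay within 1.5-fold in both directions for 41 of the 71 members, 24 of the large and 17 of the small subunit, and within 2-fold for 64. For the other members a change of 1.5-fold in at least 1 direction lay inside the interval. At the median the interval reached 0.35 to either side. Tightest over the 6 libraries were Mrpl20, at 3.55 to 3.83 FPKM, and Mrps35, at 3.02 to 3.68 FPKM.

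**Figure D3:**
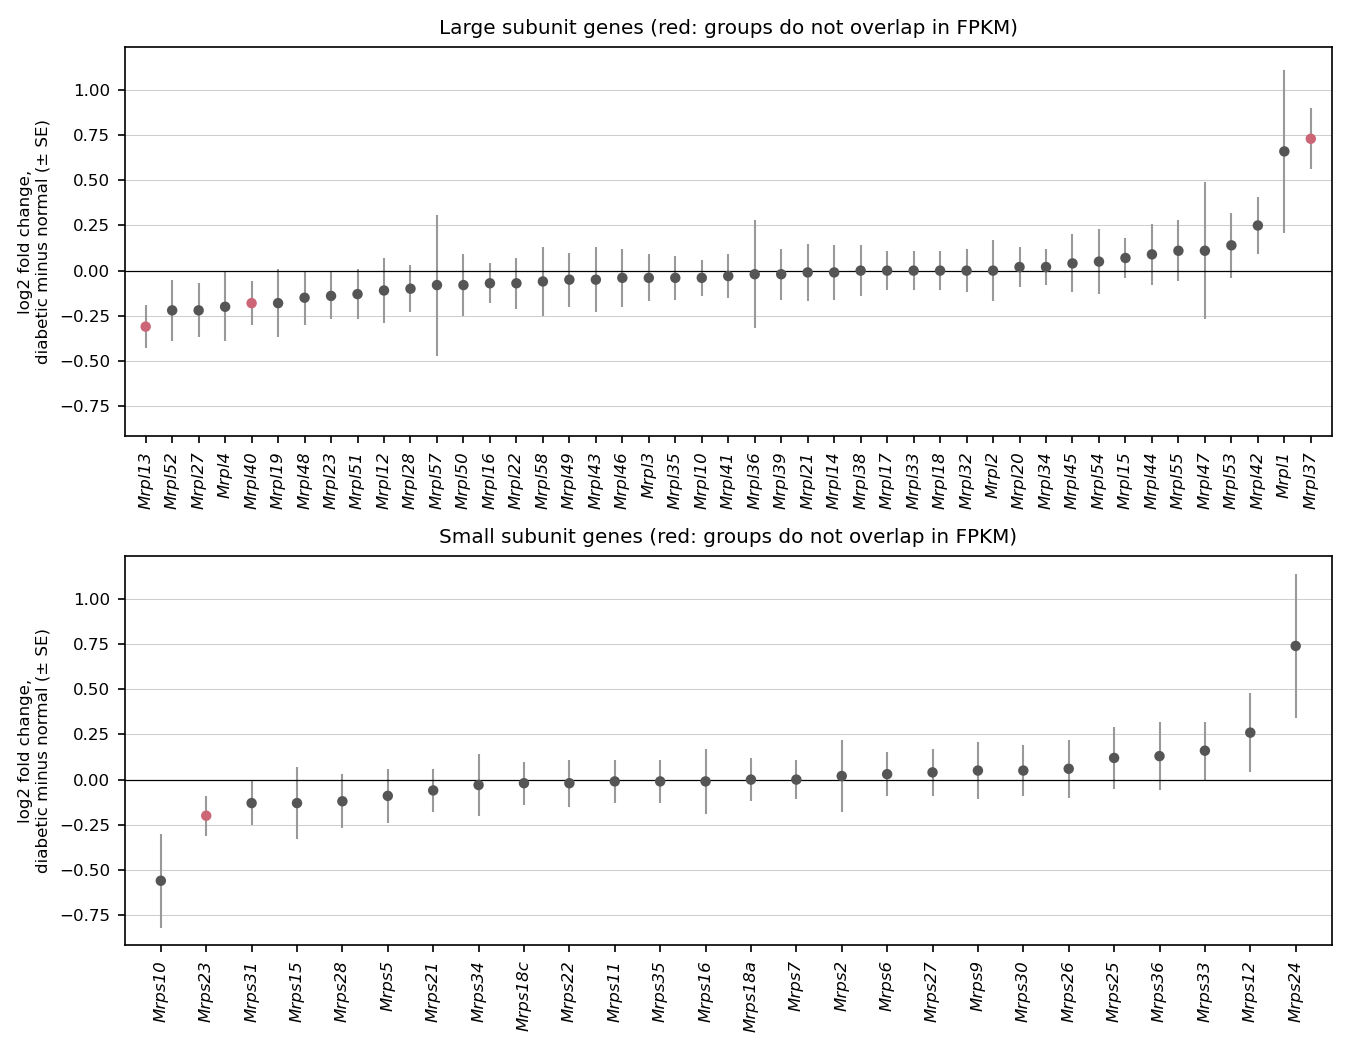
Log2 fold change (diabetic minus normal) of each large (top) and small (bottom) subunit gene, with its standard error, from the limma fit on log2(FPKM + 1) of 3 and 3 libraries; red marks genes whose groups did not overlap. Only 5 genes lie further from 0 than 0.26, the limit used for calls, and the genes with long bars, such as Mrpl1, Mrpl57 and Mrps24, have 1 or more libraries far from the rest.

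Several of the largest differences came from single libraries. Mrps24, the small subunit counterpart of a bacterial S3-type protein, had the widest spread of its subunit, with 6.17, 1.66 and 7.47 FPKM in the normal and 7.83, 9.59 and 6.77 FPKM in the diabetic libraries. The value of normal 2 rests on 128 counts, and its log2 fold change of 0.74 ± 0.40 (SE; limma adjusted p = 0.953) was the highest of the small subunit. Mrpl1, counterpart of bacterial L1, had no counts in normal 1 and 197 and 293 counts in the other normal libraries, against 259, 213 and 210 counts in diabetic libraries. Apart from the library at 0 its values, 2.03 and 2.82 FPKM in the normal and 2.35, 2.69 and 2.57 FPKM in diabetic rats, overlapped.

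Mrps10, counterpart of bacterial S10 and named here after its values were seen, had the most negative log2 fold change of all members, -0.56 ± 0.26 (SE; limma adjusted p = 0.953). It read 4.55, 4.27 and 5.43 FPKM in the normal and 4.48, 1.47 and 3.18 FPKM in the diabetic libraries. Diabetic 1 lay within the normal range and the other two below it. Mrpl47 and Mrpl57, also picked by their spread, fell into high and low libraries in both groups: Mrpl57 read 4.43, 2.28 and 1.23 FPKM in the normal and 1.32, 1.65 and 4.10 FPKM in the diabetic libraries, and Mrpl47 read 1.15, 1.22 and 3.84 FPKM and 3.08, 2.45 and 1.05 FPKM. The Mrpl47 locus is joined to a second annotation and overlaps Actl6a and Ndufb5, and that of Mrpl57 overlaps Ska3, so reads of these genes may be split between loci. Of the 71 members, 13 overlap another protein-coding locus.

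Across libraries the members varied together more than they differed between groups. Each gene was centred on its own mean of the 6 libraries, and the median over the large subunit was 0.072, 0.065 and -0.092 in normal 1 to 3 and 0.053, 0.039 and -0.135 in diabetic 1 to 3 (log2 scale). In the small subunit it was 0.071, 0.028 and -0.028 in normal and 0.113, 0.013 and -0.134 in diabetic libraries. The lowest library for both subunits was diabetic 3, where 52 of the 71 members were below their own mean, and the next lowest was normal 3, where 43 were. In normal 1 and diabetic 1, 17 and 19 were below it. As shares these are 73.2% and 60.6% in diabetic 3 and normal 3 and 23.9% and 26.8% in normal 1 and diabetic 1; over the 11570 protein-coding loci tested, diabetic 3 and normal 3 were also the low libraries, with 55.4% and 57.0% below their own mean, and the shares in the other libraries were 42.9% to 46.5%. Within-group SDs of these library medians were 0.099 for the large and 0.095 for the small subunit. They exceeded in size the median log2 fold changes between the groups, -0.034 and -0.002.

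The 75 nuclear OXPHOS subunits tested followed a similar order, with diabetic 3 lowest, and their median log2 fold change was -0.043, with 25 positive and 50 negative. Cytosolic ribosomal proteins did not have diabetic 3 as their lowest library; 40 of 71 were positive and 31 negative, with a median of 0.016. The level of the 3 lists differs widely, with median means of 4.45 FPKM for the mitochondrial ribosomal proteins, 15.7 FPKM for OXPHOS subunits and 52.1 FPKM for cytosolic ribosomal proteins. Diabetic 3 was also the library with the lowest lens and conjunctival keratin levels, and the part of tissue content in the library order was not tested.

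**Figure D4:**
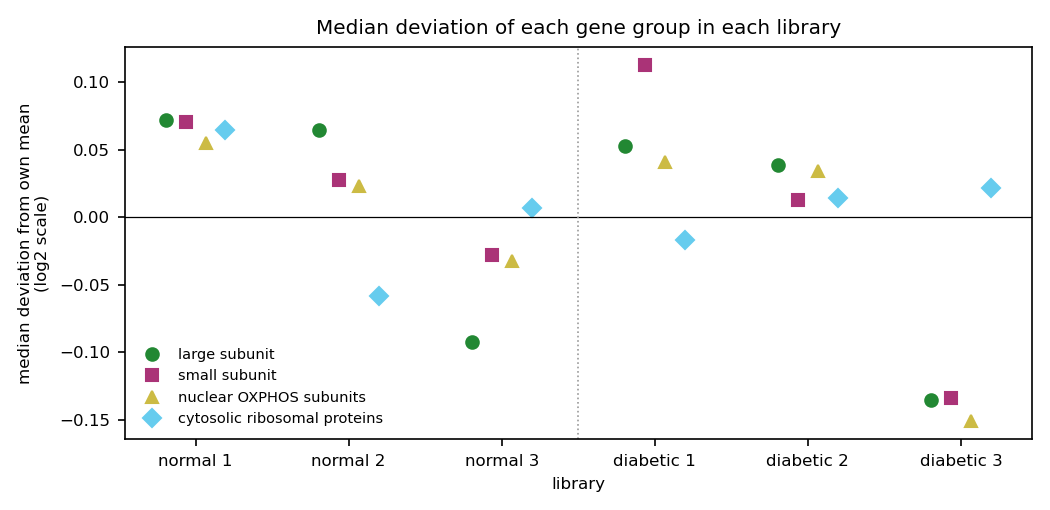
Median deviation of the genes of each group (log2 scale) from the mean of each gene, shown per library; green circles are large subunit genes, purple squares small subunit genes, yellow triangles nuclear OXPHOS subunits and blue diamonds cytosolic ribosomal proteins. Large, small and OXPHOS points are lowest in diabetic 3, between -0.151 and -0.134, and each group of libraries has points on both sides of 0.

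Lists written with earlier results known covered other genes of mitochondrial translation, mitochondrial transcription genes, genes of mitochondrial DNA and biogenesis regulators. They gave no call either. Of 98 genes in 8 lists, 89 were found and 75 tested; 32 log2 fold changes were positive and 43 negative, 0 passed the test with limma, edgeR or DESeq2, and the groups did not overlap in 2 higher and 5 lower, 9.33% of the 75, beside the 9.66% of all loci. Among ribosomal proteins of other names, Aurkaip1, a small subunit protein, read 7.23, 7.57 and 7.42 FPKM in the normal and 5.51, 6.0 and 5.27 FPKM in the diabetic libraries. All 3 diabetic libraries lay below the normal ones, and the log2 fold change was -0.34 (limma adjusted p = 0.953, edgeR adjusted p = 0.991). Chchd1 and Oxa1l, the latter the insertase that binds the ribosome at the inner membrane, had log2 fold changes of -0.07 and 0.05.

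Of the 25 assembly factors tested, Ngrn read 5.83, 5.36 and 4.40 FPKM in the normal and 3.80, 2.72 and 4.04 FPKM in the diabetic libraries, and Malsu1, which binds the large subunit before it joins the small one, read 6.64, 5.77 and 6.57 FPKM and 5.31, 3.80 and 4.94 FPKM. Both had an unadjusted limma p under 0.05 and an adjusted p of 0.953. Mtg1, a GTPase of large subunit assembly, did not overlap in the other direction, at 3.09, 3.87 and 2.68 FPKM in the normal and 4.31, 3.88 and 4.01 FPKM in the diabetic libraries. Normal 2 and diabetic 2 were almost equal there.

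The list of initiation, elongation and release factors had 14 genes tested and also held Slirp, which is none of these but stabilises mitochondrial messenger RNA. Slirp was lower without overlap, at 3.47, 3.00 and 3.08 FPKM in the normal and 2.54, 2.46 and 1.79 FPKM in the diabetic libraries (limma adjusted p = 0.953). Mtrf1l and Mtfmt, a release factor and the enzyme that formylates the initiator tRNA, had log2 fold changes of 0.20 and -0.19. Among 20 aminoacyl-tRNA synthetase and amidotransferase genes, 11 were positive and 9 negative, with Gatb, Fars2 and Iars2 at 0.38, 0.19 and 0.14. Of 6 mitochondrial transcription genes, 2 were positive and 4 negative, with Tfam, the packaging and transcription factor of mitochondrial DNA, at -0.19, Tefm at -0.17 and Tfb2m at -0.17. Of 6 biogenesis regulators 2 were positive and 4 negative, and Myc, Gabpa and Pprc1 had log2 fold changes of -0.35, -0.11 and -0.12.

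The products of the ribosome could not be followed. All 13 protein-coding genes of mitochondrial DNA are listed at 0 counts in every library, as are all 37 loci on that chromosome. The 2 mitochondrial ribosomal RNAs of the lists, matched to no locus by name, were not analysed here. Mrps17, Mrps14 and Mrps18b were outside the rule, because the type of their loci joins protein coding with another type. Mrps17 read 11.4, 11.9 and 13.3 FPKM in the normal and 12.2, 3.42 and 10.5 FPKM in the diabetic libraries, where diabetic 2 stood alone. Mrps18b read 4.34, 4.34 and 4.49 FPKM in the normal and 2.68, 3.94 and 3.60 FPKM in the diabetic libraries (limma adjusted p = 0.953), and Mrps14 was level at a log2 fold change of 0.05.

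The members lie on 15 chromosomes, with 12 each on chromosomes 1 and 10. A feature many shared was a divergent neighbour: in 20 of the 71 (28.2%) another protein-coding locus started on the opposite strand within 1000 bases upstream or overlapped the start by at most 300 bases, and over the 11570 protein-coding loci tested this held for 1313 (11.3%). These windows were chosen after the files were seen, and no test was made. Mrpl46 and Mrps11, 1 gene of each subunit, face each other with an overlap of 101 bases in rn6. Mrpl46 read 2.15, 2.12 and 1.62 FPKM in the normal and 1.99, 2.03 and 1.57 FPKM in the diabetic libraries, and Mrps11 read 4.59, 4.35 and 3.75 FPKM and 4.52, 4.0 and 3.90 FPKM, so that normal 3 was the lowest normal and diabetic 3 the lowest diabetic library for both. This order is not particular to the pair. Normal 3 and diabetic 3 were also the lowest of their groups in the median over all members and over the protein-coding loci tested. Other neighbours work in the same organelle: Mrps12 faces Sars2, the mitochondrial seryl-tRNA synthetase, at 16 bases, and Mrpl43 faces Twnk, the helicase of mitochondrial DNA, with an overlap of 47 bases.

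Promoter sequence from RefSeq (GRCr8, 250 bases before to 50 after the transcript start) was matched by symbol for 56 of the 71 members. Its median GC content was 55.7% beside 55.0% over 21851 protein-coding promoters, but the median number of CpG dinucleotides was 18 in members and 11 over all promoters. The YY1, ETS, NRF1 and Sp1 motifs contain CG, and the part of CpG content in their frequency was not tested. 8 motifs, chosen after the files were seen, were searched on both strands. The most frequent relative to all promoters was AAGATGGCG, a form of the element bound by YY1, in 9 of 56 members (16.1%) and 2.07% of all promoters. The ETS core CGGAAG, bound by GABPA and related factors, was in 29 members (51.8%) against 19.8%, and in 27 of these it lay no more than 100 bases before the start or after it. The longer ETS form CCGGAAGT, which contains the core, was in 14.3% against 4.77%.

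The NRF1 palindrome was in 3 members (5.36%) against 1.08%, and its looser form with 1 central base free, which includes it, in 7 (12.5%) against 5.67%. Sp1 (GGGCGG) was in 48.2% against 41.8%, the CCAAT box (CCAAT) in 44.6% against 38.0%, and the TATA box (TATAAA) in 10.7% against 13%. A match is a description of the letters and not a bound site. The 9 windows with the YY1 motif are shown because they include Mrpl37 and because their position was shared: 8 lay at or after the start, all 9 started between 17 bases before and 30 bases after it, and 8 were read on the strand of the transcript. Each is written 5′ to 3′ on the strand of the motif, with the motif in capitals and 10 bases on each side, and its GRCr8 position and the strand of the gene before it.
Mrpl37 (chr5:127074943-127074971, minus): tgcccgggcaAAGATGGCGgcgtccaggt
Mrpl36 (chr1:31795120-31795148, minus; motif on the plus strand): gccagaaagaAAGATGGCGtagggtcacg
Mrpl42 (chr7:32028485-32028513, minus): agattgaagcAAGATGGCGagcgcgcggt
Mrpl46 (chr1:142116988-142117016, minus): ggaagacggaAAGATGGCGgcgcccatag
Mrpl50 (chr5:68668043-68668071, minus): gagcttgtcgAAGATGGCGgcgctgtgtg
Mrps10 (chr9:21122405-21122433, minus): tcagggcaccAAGATGGCGgcgcgcgcag
Mrps18a (chr9:22367362-22367390, minus): gtgtgttcccAAGATGGCGgccctcaggg
Mrps27 (chr2:32474223-32474251, plus): ggtacgctccAAGATGGCGgcccccatgg
Mrps30 (chr2:52195868-52195896, minus): gcggaggacaAAGATGGCGgctgccaggt

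Of these 9 genes none was called. Their log2 fold changes ran from -0.56 in Mrps10 to 0.73 in Mrpl37. Between these lay Mrpl42 at 0.25, Mrps30 at 0.05, Mrps27 at 0.04, Mrps18a at 0.00, Mrpl36 at -0.02, Mrpl46 at -0.04 and Mrpl50 at -0.08. The part of the motif in these values was not tested.

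**Figure D5:**
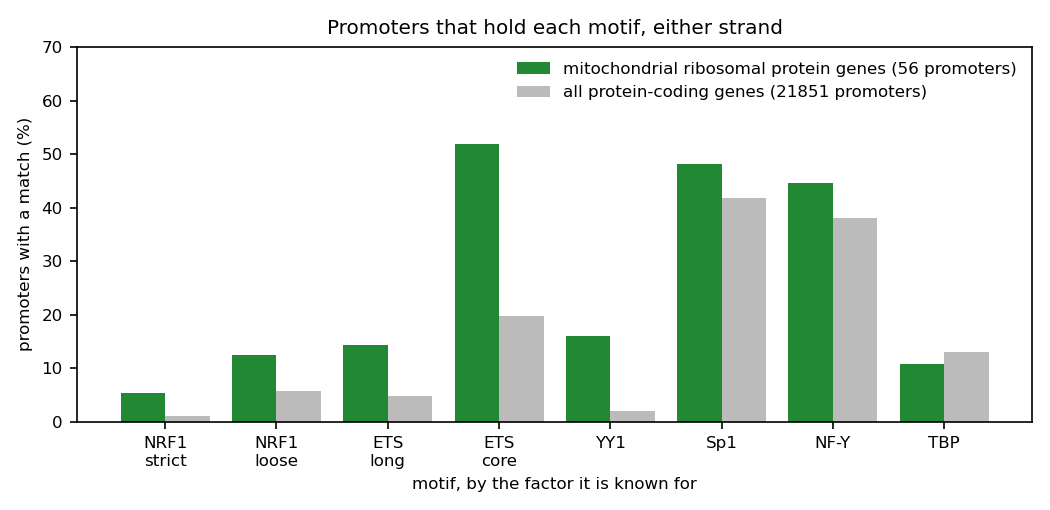
Share of promoters (%) that hold each of the 8 motifs on either strand; green bars are the 56 matched promoters of mitochondrial ribosomal protein genes and grey bars the 21851 promoters of all protein-coding genes. The bars differ most for the ETS core, at 51.8% and 19.8%, and in proportion for YY1, at 16.1% and 2.07%, and are near each other for Sp1, NF-Y (the CCAAT box) and TBP (the TATA box).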

How the data were processed

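RNA of scraped corneal epithelium was sequenced in 3 normal and 3 diabetic rats, each library being taken as 1 rat. Per the labels, the authors used cutadapt, FastQC and Bowtie2 with the rn6 build; no source used here gives versions, strandedness, assembler or counter. The authors deposited whole-number counts and FPKM per assembled locus; 86380 placeholder FPKM values, where the count was 0, were set to 0. Total counts were 62288901 to 87040253. The methods of the study name a log2 transform, normalization with affy, limma and the 1.2-fold and 0.05 thresholds; the filter (42551 loci at a mean of 0.5 FPKM or more), the pseudocount of 1, quantile normalization and the trend option were set here, and the values were fitted with limma 3.58.1 (trend, two-sided, R 4.3.3). edgeR 4.0.16 (quasi-likelihood) and DESeq2 1.42.0 were run on the counts as alternatives, beside other scalings, pseudocounts and filters and the omission of single libraries. Members, lists and tests were chosen with earlier results of these data known, and the 8 motifs and the divergent-neighbour windows after the files were seen. The text names Mrpl37, members with an unadjusted limma p under 0.05, the 4 highest and 2 lowest of each subunit, those without overlap, the widest and tightest of each subunit, the 3 nearest to Mrpl37, Mrps28, Mrps30, Mrps18a and Mrps36, and up to 3 genes of smallest p in each other list; genes named beyond this (Mrps10, Mrpl47, Mrpl57, the divergent pairs and the genes with a YY1 motif among them) were chosen after their values were seen. Same-numbered libraries of the 2 groups were not taken as pairs (correlations -0.009, 0.025 and 0.032). The scripts were tested on simulated data.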

Additional observations from a re-analysis of the deposited data

How the results depend on the processing

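No member was called under any alternative that was run for the count of members called, and the Mrpl37 log2 fold change stayed positive and short of the threshold in all 19 alternatives and in 6 edgeR fits added after seeing the data. The count of all loci called, 11, was less stable: 6 with edgeR (TMM or RLE scaling), 99 with DESeq2, 6 with a pseudocount of 0.1, 3 with no filter and 3 with protein-coding loci alone, and 3 to 10 with 1 library left out. With the replicate block it was 1, and the Mrpl37 log2 fold change was 0.73 with an adjusted p of 0.926; the block changed no call of a member. Leaving out single libraries moved the large subunit median between -0.081 and 0.013 and the small subunit median between -0.058 and 0.053. Named members with log2 fold changes near 0 changed sign, and the cause was not tested. Mrpl17 and Mrpl33 turned to 0.00 and 0.01 with edgeR and to 0.01 with DESeq2 and RLE scaling, and Mrpl33 to 0.01 with protein-coding loci alone; Mrps18a turned to -0.01 without further normalization and to -0.00 with median centring or protein-coding loci. With all loci of a symbol summed, Mrpl20 turned to -0.01, Mrpl39 to 0.03, Mrps15 to 0.04 and Mrps35 to 0.01. With 1 library left out, the log2 fold changes of these genes covered both signs, from the lowest to the highest fit: Mrpl17 -0.08 to 0.04, Mrpl20 -0.00 to 0.06, Mrpl33 -0.06 to 0.08, Mrpl39 -0.07 to 0.02, Mrpl41 -0.09 to 0.06, Mrpl53 -0.06 to 0.30, Mrps18a -0.10 to 0.06, Mrps21 -0.13 to 0.05, Mrps26 -0.06 to 0.20, Mrps30 -0.03 to 0.15 and Mrps35 -0.06 to 0.05. In 69 members every library had at least 100 counts; how much of the spread comes from counting was not tested.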
